A study of Mus musculus with 18 samples.

Results

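Of 166066 merged accessible regions in mouse embryonic stem cells, 1523 were wide peaks at the ends of protein-coding genes. They are the autosomal peaks over 2000 and up to 4000 bp long that overlap the 500 bp on either side of an annotated gene start or end in the mouse build GRCm38. They were set against 4092 autosomal peaks of 500 to 1000 bp that meet the same windows. The 1523 wide peaks gave 1779 of 20558 autosomal protein-coding genes an end with a wide peak (8.65%). Another 3888 genes had a peak of 500 to 1000 bp at an end and no wide one (18.9%), and 14973 genes had a peak of any width there (72.8%).

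The study used ATAC-seq, in which a transposase cuts and tags open DNA, to follow chromatin after loss of histone H3 lysine 9 methyltransferases. All libraries came from the mouse embryonic stem cell line dTKO, with the genotype Suv39h1fl/fl ; Suv39h2-/- ; Setdb1fl/fl, grown with LIF and serum on gelatin. The medium received dTAG13 (0.5 µM) and auxin (100 µg/ml), which trigger breakdown of proteins built with the matching tag, per the labels, with collection at 0, 3, 6, 12, 24 and 48 h. Each of the 6 times had 3 libraries, 18 in all. Every library thus shared the deletion of Suv39h2 and both floxed alleles, also at 0 h, and the labels list the 2 agents for the 0 h libraries too. Which proteins were tagged is not labelled, and a single line is 1 genetic background. The deposited list merges the peaks of the series and holds positions only. It therefore gives no height, read count or library of origin, no time can be set against another, and no value has an error between replicates. Intervals of shares are 95% Wilson intervals, which cover counting error only, and neighbouring genes can share a peak, so genes are not independent of each other.

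Most promoters of mammalian genes that are used in many tissues, and many promoters of developmental regulators, lie in CpG islands, stretches of DNA rich in unmethylated CG dinucleotides that tend to stay free of stable nucleosomes. In embryonic stem cells the islands of developmental regulators are known targets of the Polycomb complexes, which keep such genes low while leaving their DNA open. Broad domains of histone H3 trimethylated at lysine 4 over gene starts are a known feature of genes that define a cell's identity.

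Gene-end peaks just outside the lower width limit included those of Rbm24, Nadk2 and Scaf11, each 2000 bp long. Peaks of 2001 bp at Irx1, Deptor and Sorcs3 were just inside it. At the upper limit, the 3996 bp peak of Nsd1, the 3846 bp peak shared by Arid2 and Gm38469 and the 3840 bp peak of Jun were inside. The peaks of Fgf18 (4045 bp), Ssbp4 (4165 bp) and Brd2 with H2-DMa (4186 bp) were outside. The members were chosen by these widths and by the position of the peak, so both are given as a description.

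The promoters of pluripotency genes show what lies under the wide and the shorter peaks. Of the list of 31 core and naive pluripotency genes, 6 had a wide peak at the promoter end and a promoter sequence in the RefSeq table of GRCm38.p6, and all 6 are printed first. Each sequence runs 5′ to 3′ on the gene's own strand from 250 bases before the annotated start to 50 after it. The motif CCGCCC and its reverse complement GGGCGG, the core of the GC box, are in capitals.
Pou5f1: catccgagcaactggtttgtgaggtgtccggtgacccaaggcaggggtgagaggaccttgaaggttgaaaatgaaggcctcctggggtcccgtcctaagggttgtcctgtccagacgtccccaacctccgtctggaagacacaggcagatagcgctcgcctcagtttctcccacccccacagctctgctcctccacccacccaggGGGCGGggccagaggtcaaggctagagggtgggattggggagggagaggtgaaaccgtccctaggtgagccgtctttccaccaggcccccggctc
Sox2: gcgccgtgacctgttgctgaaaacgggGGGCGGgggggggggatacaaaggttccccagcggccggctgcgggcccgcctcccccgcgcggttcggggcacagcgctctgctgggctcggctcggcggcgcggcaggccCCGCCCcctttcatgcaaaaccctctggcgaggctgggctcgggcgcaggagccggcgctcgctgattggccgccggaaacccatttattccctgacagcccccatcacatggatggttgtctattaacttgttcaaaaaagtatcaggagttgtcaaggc
Lin28a: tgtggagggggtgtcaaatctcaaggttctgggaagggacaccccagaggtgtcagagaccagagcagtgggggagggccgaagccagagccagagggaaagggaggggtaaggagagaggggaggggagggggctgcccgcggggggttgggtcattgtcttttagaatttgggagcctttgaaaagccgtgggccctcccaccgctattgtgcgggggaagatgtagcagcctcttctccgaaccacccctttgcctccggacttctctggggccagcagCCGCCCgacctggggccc
Tdgf1: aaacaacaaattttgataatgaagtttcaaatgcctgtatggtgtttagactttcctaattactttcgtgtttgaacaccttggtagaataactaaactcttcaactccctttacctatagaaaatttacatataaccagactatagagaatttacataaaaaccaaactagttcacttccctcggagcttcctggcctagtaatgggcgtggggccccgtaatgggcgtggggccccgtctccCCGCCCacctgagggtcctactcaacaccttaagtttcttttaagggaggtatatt
Nodal: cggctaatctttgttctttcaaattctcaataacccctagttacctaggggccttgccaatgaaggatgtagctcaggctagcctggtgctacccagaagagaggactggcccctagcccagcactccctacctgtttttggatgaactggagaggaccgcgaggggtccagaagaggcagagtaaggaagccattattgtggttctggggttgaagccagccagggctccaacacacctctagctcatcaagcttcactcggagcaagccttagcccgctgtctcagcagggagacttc
Tet1: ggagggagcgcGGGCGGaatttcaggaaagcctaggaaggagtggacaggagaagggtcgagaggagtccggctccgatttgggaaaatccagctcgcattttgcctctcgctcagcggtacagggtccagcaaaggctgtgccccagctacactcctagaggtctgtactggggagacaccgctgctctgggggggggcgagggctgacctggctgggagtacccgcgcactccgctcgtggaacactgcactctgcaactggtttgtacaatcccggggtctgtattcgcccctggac
The last 2 sequences belong to Zfp42 and Tcl1, the genes of the same list with a peak of 500 to 1000 bp at the promoter end and a sequence in the table.
Zfp42: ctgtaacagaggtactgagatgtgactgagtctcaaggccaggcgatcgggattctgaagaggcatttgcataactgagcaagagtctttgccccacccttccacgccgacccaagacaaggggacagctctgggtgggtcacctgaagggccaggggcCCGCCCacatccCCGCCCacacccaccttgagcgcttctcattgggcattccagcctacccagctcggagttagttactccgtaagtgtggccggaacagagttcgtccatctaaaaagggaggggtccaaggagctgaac
Tcl1: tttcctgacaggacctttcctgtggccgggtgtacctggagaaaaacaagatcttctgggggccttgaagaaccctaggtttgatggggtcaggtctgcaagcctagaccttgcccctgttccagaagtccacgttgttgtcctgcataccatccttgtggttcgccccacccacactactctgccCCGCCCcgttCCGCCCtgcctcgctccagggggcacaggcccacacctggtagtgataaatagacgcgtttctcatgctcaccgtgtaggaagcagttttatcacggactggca

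Pou5f1, the homeobox factor Oct4 of the pluripotency network, had its promoter at chr17:35505782-35506081 on the plus strand, with 11 CpG dinucleotides, 62.7% G and C, and a peak of 2567 bp. Sox2, its high mobility group partner, had its promoter at chr3:34649745-34650044 on the plus strand, with 27 CpG dinucleotides, 66.3% G and C, and a peak of 2470 bp. Lin28a, an RNA-binding protein that blocks let-7 maturation, had its promoter at chr4:134018767-134019066 on the minus strand, with 10 CpG dinucleotides, 63.3% G and C, and a peak of 3121 bp. The promoter of Sox2 held the most CpG dinucleotides of the 8. Tdgf1, the co-receptor Cripto of Nodal signalling, had its promoter at chr9:110946109-110946408 on the minus strand, with 7 CpG dinucleotides, 41.7% G and C, and a peak of 2300 bp. Nodal, a ligand of the TGF-beta family, had its promoter at chr10:61417722-61418021 on the plus strand, with 5 CpG dinucleotides, 54% G and C, and a peak of 3275 bp. Tet1, an enzyme that oxidises methylated cytosine, had its promoter at chr10:62887275-62887574 on the minus strand, with 17 CpG dinucleotides, 61.7% G and C, and a peak of 2330 bp. Nodal was the only promoter of the 8 without a GC box, and it lay under the widest of these peaks. Zfp42, the zinc finger protein Rex1, had its promoter at chr8:43306960-43307259 on the minus strand, with 11 CpG dinucleotides, 57.7% G and C, and a peak of 574 bp. Tcl1, a coactivator of the kinase Akt, had its promoter at chr12:105222688-105222987 on the minus strand, with 11 CpG dinucleotides, 56.7% G and C, and a peak of 685 bp. The promoters of Zfp42 and Tcl1 held 2 GC boxes each, as did that of Sox2, so these sequences do not separate by that motif. The peak of Pou5f1 ran from 35503681 to 35506247 and reached mostly upstream of the gene, whereas that of Tet1 (62885348 to 62887677) lay mostly within the gene, on the minus strand.

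Forkhead genes, histones, clustered protocadherins, Sox genes and ribosomal proteins had the 5 highest shares of genes with a wide end peak, followed by pluripotency genes and signalling ligands, and germline, proteasome, defensin and keratin genes had none. The shares were read against 8.65% of all autosomal protein-coding genes with a wide end peak and 18.9% with a peak of 500 to 1000 bp and no wide one. Across 43 gene lists, the share with a wide peak ran between 0% and 48.8%. No test was made of any list, because lists of neighbouring or related genes share peaks and the members were chosen with results in view.

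**Figure D1:**
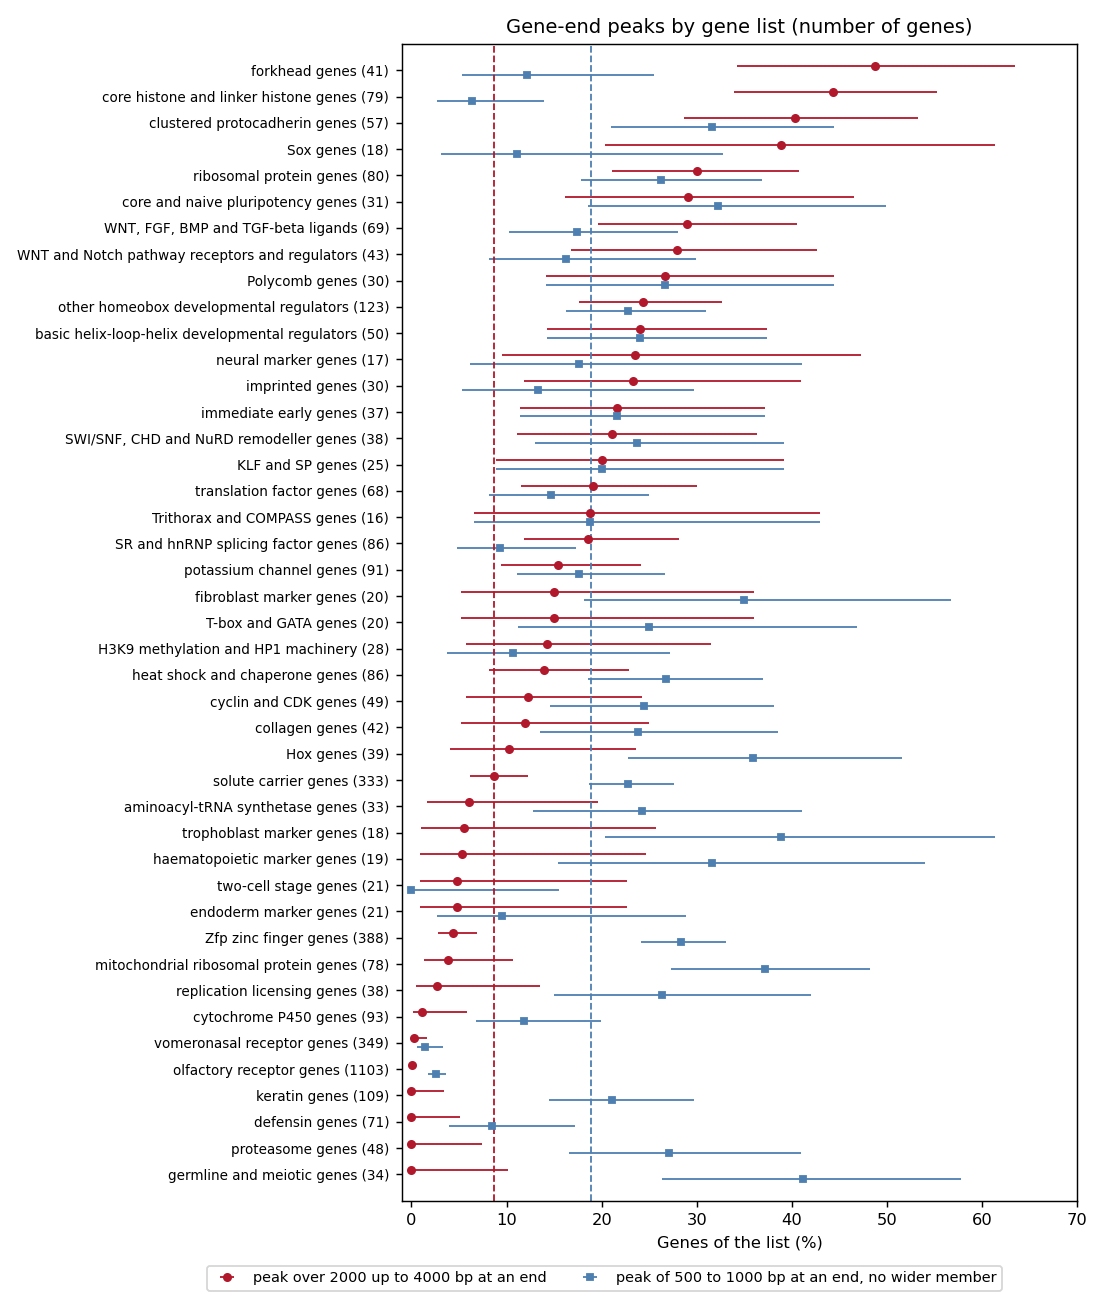
Share of genes of each list (horizontal axis, %) with an end peak over 2000 up to 4000 bp (red circles) and with an end peak of 500 to 1000 bp and no wide one (blue squares), with 95% Wilson intervals; dashed lines give the shares of all 20558 autosomal protein-coding genes, 8.65% in red and 18.9% in blue. Lists run from forkhead genes at the top (48.8% wide) to proteasome and germline genes at the bottom (0% wide), where the blue points stand at 27.1% and 41.2%.

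Transcription factors of the forkhead, Sox and homeobox families had wide peaks at a high share of their genes. Of 41 forkhead genes, which encode winged-helix factors, 20 had a wide end peak (48.8%, 34.3 to 63.5), against 5 with a peak of 500 to 1000 bp (12.2%, 5.32 to 25.5). Their 20 peaks were distinct and ran from 2005 to 3557 bp. The widest were those of Foxo3 (3557 bp) and Foxo1 (3072 bp), factors restrained by insulin signalling, and of Foxf1 (2928 bp) and Foxb1 (2856 bp), regulators of mesoderm and of the developing brain. Foxb2, Foxh1 and Foxi1 had end peaks of 971, 930 and 614 bp. The forkhead intervals of the 2 width classes did not overlap. A gene with a wide peak was not counted in the shorter class, so the 2 shares are linked and this is a description only.

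Of 18 Sox genes, high mobility group factors of stem and progenitor cells, 7 had a wide end peak (38.9%, 20.3 to 61.4) and 2 a peak of 500 to 1000 bp (11.1%, 3.10 to 32.8), with overlapping intervals. The widest were at Sox12 (3380 bp), Sox21 (2961 bp), Sox11 (2729 bp) and Sox10 (2659 bp), all with roles in the nervous system or neural crest. Of 123 homeobox developmental regulators outside the Hox clusters, 30 carried a wide peak (24.4%, 17.7 to 32.7) and 28 a shorter one (22.8%, 16.2 to 30.9). Tlx2, needed for enteric neurons, had 3376 bp, Lhx1, a head organiser factor, 3035 bp, Hmx3, an inner ear factor, 2956 bp, and Pou3f1, a neural and Schwann cell factor, 2801 bp. Dlx3, Dlx5 and Emx2 had peaks of 931, 889 and 972 bp. Of 50 basic helix-loop-helix regulators, 12 had a wide peak (24.0%, 14.3 to 37.4) and 12 a shorter one. They include Olig1 of the oligodendrocyte lineage (2730 bp) and Twist2 of the mesenchyme (2727 bp).

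The Hox genes, which set position along the body axis and lie in 4 clusters, had a wide share near that of all genes (8.65%), and like all genes had shorter end peaks more often than wide ones. Of 39, 4 had a wide end peak (10.3%, 4.06 to 23.6) and 14 a peak of 500 to 1000 bp (35.9%, 22.7 to 51.6). The 4 carriers were Hoxd8 (2283 bp), Hoxa5 and Hoxa6, which share 1 peak of 2164 bp, and Hoxc5 (2064 bp), so that 3 peaks account for them. The intervals of the 2 width classes overlapped, and that of the wide share overlapped the interval of the other homeobox genes. Hoxa11, Hoxb5 and Hoxb6 had end peaks of 737, 671 and 736 bp.

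Genes for secreted ligands and their receptors carried wide peaks more often than shorter ones by count. Of 69 WNT, FGF, BMP and TGF-beta ligand genes, 20 had a wide end peak (29%, 19.6 to 40.6) and 12 a peak of 500 to 1000 bp (17.4%, 10.2 to 28). Wnt3, which drives the posterior side of the early embryo, had 3597 bp, Wnt7b 3558 bp, Gdf1, a left-right ligand, 3323 bp and Nodal 3275 bp. The 3323 bp peak of Gdf1 lay at the end away from its promoter, and the peak over its promoter measured 2337 bp. Bmp4, Fgf22 and Fgf23 had 668, 911 and 584 bp. Of 43 WNT and Notch receptors and regulators, 12 had a wide peak (27.9%, 16.7 to 42.7) and 7 a shorter one (16.3%). Among them were the WNT receptors Fzd10 (2804 bp), Fzd2 (2541 bp) and Fzd8 (2475 bp) and the Notch ligand Dll4 (2497 bp). Axin1 and Dvl2, intracellular parts of the same WNT pathway, had 779 and 700 bp. The intervals of the 2 width classes overlapped for both lists.

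Pluripotency genes were split between the classes. Of 31, 9 had a wide end peak (29%, 16.1 to 46.6) and 10 a peak of 500 to 1000 bp (32.3%, 18.6 to 49.9). Nodal (3275 bp), Lin28a (3121 bp), the zinc finger factor Sall4 (2743 bp) and the telomere and replication timing factor Rif1 (2740 bp) had the widest. Zfp42, Dppa3 and Dppa5a, all markers of the naive state, had 574, 579 and 905 bp. By position only, the 8 stem cell markers Pou5f1, Nanog, Sox2, Klf2, Esrrb, Zfp42, Dppa5a and Tdgf1 all had an end peak. An end peak of any width was also found at 72.8% of all genes. It was found at 15 of 17 neural, 15 of 20 fibroblast, 14 of 18 trophoblast, 12 of 21 endoderm and 11 of 19 haematopoietic markers. Its presence therefore does not tell the labelled cell type from others. The widest end peaks of the 8 stem cell markers measured 2567, 1664, 2470, 1277, 304, 574, 905 and 2364 bp in that order. Thus 3 of the 8 carried a wide one. Lists of other cell types also had wide peaks: 4 of 17 neural markers (23.5%), 3 of 20 fibroblast markers (15.0%), and 1 each of 19 haematopoietic, 21 endoderm and 18 trophoblast markers. Pax6, a neural marker, had 2455 bp, and Cxcr4, an endoderm marker, 2980 bp. An open region at a gene does not measure its RNA, so these values do not tell which cells expressed the genes.

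Among chromatin regulators, wide and shorter peaks were about equally frequent, whereas all genes had 8.65% wide and 18.9% shorter. Polycomb genes had 8 of 30 in each class (26.7%, 14.2 to 44.4). Aebp2, Phf19 and Phc1, accessory or core subunits of the 2 complexes, had 2878, 2763 and 2506 bp and Rybp 2825 bp. Ring1 had 909 bp and Kdm2b 589 bp. The 2506 bp peak of Phc1 lay beyond the end away from its promoter, and the peak over its promoter measured 1741 bp. Of 38 SWI/SNF, CHD and NuRD remodeller genes, 8 had a wide peak (21.1%), led by Arid2 (3846 bp) and the ATPase Smarca4 (2621 bp), and 9 a shorter one (23.7%). Of 16 Trithorax and COMPASS genes, 3 had a wide peak (18.75%, 6.59 to 43.0) and 3 a shorter one. The wide peaks were at Kmt2e (3107 bp), Kmt2a (2882 bp) and Kmt2c (2730 bp). The widest member of all, at 3996 bp, lay at Nsd1, a histone H3 lysine 36 methyltransferase.

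The machinery of histone H3 lysine 9 methylation, the subject of the study, had 4 of 28 genes with a wide peak (14.3%, 5.70 to 31.5) and 3 with a shorter one (10.7%). The carriers were Cbx3, which encodes the reader HP1 gamma (2532 bp), Pphln1 of the HUSH complex (2423 bp), Atf7ip, the partner of Setdb1 (2361 bp), and Trim28, the corepressor that recruits Setdb1 (2246 bp). The 2361 bp peak of Atf7ip lay at the end away from its promoter, and the peak over its promoter measured 938 bp. The gene of HP1 beta, Cbx1, had 875 bp. None of the 3 methyltransferase genes was a carrier. Suv39h2 had an end peak of 1682 bp, Setdb1 had peaks of 1337 and 1205 bp at its ends, and the X-linked Suv39h1 had 1409 bp. A peak at a gene does not check the loss of its protein.

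Immediate early and growth control genes were also found in both classes. Of 37 immediate early genes, 8 had a wide peak (21.6%, 11.4 to 37.2), led by Jun (3840 bp), a subunit of AP-1, and Zfp36l2 (2972 bp), which promotes mRNA decay, and 8 had a shorter one, among them Fosb (559 bp). Of 49 cyclin and CDK genes, 6 had a wide peak (12.2%), among them Cdk6 (3590 bp) and the imprinted CDK inhibitor Cdkn1c (2674 bp), and 12 a shorter one (24.5%), among them Ccnb2 (996 bp) and Cdk4 (944 bp). Of 30 imprinted genes, 7 had a wide peak (23.3%), over 5 distinct peaks. Peg3 and Usp29 shared a peak of 3395 bp and Peg10 and Sgce one of 2726 bp, in each case a pair expressed from the paternal copy.

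Several lists stood below all genes in the wide share while their 500 to 1000 bp share stood above that of all genes. Of the lists given here, only the Zfp genes had both intervals clear of the shares of all genes. Of 388 Zfp zinc finger genes, many of which bind and silence transposons, 17 had a wide end peak (4.38%, 2.75 to 6.90) and 110 a peak of 500 to 1000 bp (28.4%, 24.1 to 33.0). The widest lay at Zfp423 (3031 bp), a neural factor. Of 78 mitochondrial ribosomal protein genes, 3 had a wide peak (3.85%, 1.32 to 10.7) and 29 a shorter one (37.2%, 27.3 to 48.3), and those 3, at Mrpl40, Mrpl58 and Mrps23, reached no more than 2299 bp. Of 48 proteasome genes, none had a wide peak, which allows a share of up to 6.25%, and 13 had a shorter one (27.1%), among them Psma2 (927 bp) and Psmb1 (879 bp). Of 34 germline and meiotic genes, known to be silenced by promoter methylation in somatic cells, none had a wide peak, which allows up to 8.82%, and 14 had a shorter one (41.2%, 26.4 to 57.8), among them Ddx4 (908 bp), Mael (955 bp) and Sycp3 (600 bp). Replication licensing genes had 1 of 38 (2.63%) and 10 shorter ones (26.3%), among them Mcm2 (732 bp). At a limit of over 1500 bp their wide share was 28.9%, against 26.5% of all genes. The wide intervals of mitochondrial ribosomal protein, germline and replication licensing genes included the 8.65% of all genes. The shorter-peak intervals of proteasome (16.6 to 41.0) and replication licensing genes (15.0 to 42.0) included the 18.9% of all genes.

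Large receptor families and genes of the skin had few wide peaks. Of 1103 olfactory receptor genes, 1 had a wide end peak, Olfr94 with 2046 bp, and 28 a shorter one (2.54%). Of 349 vomeronasal receptor genes 1 had a wide peak, and keratin genes (0 of 109) and defensin genes (0 of 71) had none, which allows up to 2.75% and 4.23%. The 21 genes of the 2-cell stage programme had 1, at Duxf3 (2201 bp). Among genes with any end peak, the share was 25% of the 2-cell stage genes (1 of 4), 6.25% of vomeronasal and 1.82% of olfactory receptor genes, against 11.9% of all such genes, which turns the direction for the 2-cell stage list. Duxf3 lies in near-identical copies, and the receptor families hold related genes that resemble each other to differing degrees. The mapping of some of their reads is therefore uncertain, and it was not measured.

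Histone and protocadherin shares rest on few peaks. Of 79 core and linker histone genes, 35 had a wide end peak (44.3%, 33.9 to 55.3) and 5 a peak of 500 to 1000 bp (6.33%, 2.73 to 14), but 18 distinct peaks account for the 35. A peak of 3693 bp at chr13:21715309-21719001 took in H2bc13, H2ac13 and H3c10, 1 of 3443 bp took in H4c18, H2ac24 and H4bc24, and 1 of 3413 bp took in H2bc23, H2ac23 and H4c17. Histone genes are short, with a median of 504 bp, and 28 of 73 with known strand had a wide peak at both ends. Of 57 clustered protocadherin genes, whose alternative first exons give neurons their surface identity, 23 had a wide end peak (40.4%) over 4 distinct peaks. A single peak of 2337 bp on chromosome 18 met the annotated ends of 24 genes, most of them of the gamma cluster, whose members share their last exons. Of the 24, Gm37013, Gm38666 and Gm38667 are not in the list. At a width limit of over 2500 bp no protocadherin gene had a wide peak, against 2.38% of all genes. Copies within both families are similar in sequence, so their mapping is uncertain too.

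Ribosomal protein genes differed from the developmental lists in the end that carried the peak. The strand was known for 16457 genes from the promoter table, and the end with the promoter is called the promoter end and the opposite one the far end. Of these genes, 1194 had a wide peak at the promoter end (7.26%, 6.87 to 7.66), 248 at the far end (1.51%, 1.33 to 1.70) and 84 at both. Among 60 ribosomal protein genes with strand, 4 had a wide peak at the promoter end (6.67%, 2.62 to 15.9) and 18 at the far end (30.0%, 19.9 to 42.5). The far-end interval lay wholly above the share of all genes, and the promoter-end interval included it. This comparison of ends was chosen after the values were seen.

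The 18 far-end peaks of ribosomal protein genes ran from 2135 to 3701 bp, against a median of 2264 bp over all 1523 members. That of Rps12 measured 3701 bp (chr10:23780983-23784683), 500 bp past the far end of the gene, which is annotated at 23785183 on the minus strand. Rps24, Rpl12 and Rps6 had far-end peaks of 3574, 3284 and 3149 bp. Over their promoters these 4 genes had peaks of 837, 1408, 756 and 1005 bp in the same order. These 4 were named for the width of the far-end peak, and elsewhere in the list the 2 peaks were closer in width, as at Rpl5 (2258 bp at the far end and 2119 bp over the promoter). The other 14, named after their values were seen, were Rps25 (2852 bp), Rps9 (2770 bp), Rpl31 (2703 bp), Rpl26 (2700 bp), Rpl7l1, Rpl23, Rps19, Rpsa, Rpl5, Rps18, Rpl38, Rpl9, Rplp0 and Rpl18, the narrowest at 2135 bp. Of the 18 peaks, 10 began beyond the annotated end and touched only its 500 bp window, and 12 lay over no promoter in the table and at no end of a gene without an entry there. Of the 60 genes, 57 had a peak over the promoter, with a median of 1099 bp and a range of 524 to 2410 bp.

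The ribosomal far-end share depended on how contact with the gene end was defined. It was 13.3% where the peak had to cover the end base itself, 16.7% for peaks over 2500 bp and 43.3% with windows of 2000 bp, while all genes stood at 0.960%, 0.583% and 2.78%. Retrocopies of ribosomal protein genes are numerous in the mouse genome, and the sources used here do not give the handling of reads that fit several places, so single genes of this family are uncertain. RefSeq gene ends mark the outermost annotated base, and the data do not show where transcription ended in these cells.

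Genes of translation, protein folding and RNA binding also carried wide peaks at the far end, though not these lists alone. Polycomb genes had 2 of 24 there (8.33%), pluripotency genes 1 of 20 (5.00%) and homeobox genes outside the clusters 4 of 86 (4.65%). Of 52 translation factor genes with strand, 4 had one at the promoter end (7.69%) and 6 at the far end (11.5%), against 7.26% and 1.51% of all genes. The far-end peaks included those of Eif2s2 (3231 bp), a subunit of the factor that brings initiator tRNA, and Eef1a1 (2408 bp, named after its value was seen), the factor that delivers tRNA during elongation. Of 70 chaperone and heat shock genes, 4 had a wide peak at the promoter end and 4 others at the far end (5.71% each). The far-end peaks included those of Hspd1, the mitochondrial Hsp60 (3035 bp wide), and Cct7, a subunit of the cytosolic chaperonin (2824 bp wide). The Cct7 peak began just beyond the gene. Hspg2 (2938 bp), matched to the same list by its symbol, encodes a basement membrane proteoglycan and not a chaperone. Among splicing and RNA-binding genes, 13 of 75 had a promoter-end peak (17.3%, 10.4 to 27.4). At the far end 4 had one (5.33%, 2.09 to 12.9, against 1.51% of all genes), and 2 had a wide peak at both ends. The far-end peaks included those of Hnrnpa3 (3581 bp) and Hnrnpu (3454 bp). Bzw1, a regulator of translation initiation, had a far-end peak of 3709 bp that began beyond the gene.

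Like all genes with strand (248 at the far end and 1194 at the promoter end), the developmental lists carried their wide peaks mostly at the promoter end. Potassium channel and Zfp genes also had most of theirs at the promoter end. Forkhead genes had 11 of 26 there (42.3%, 25.5 to 61.1) and 1 at the far end, Sox genes 6 of 13 and 0, and potassium channel genes 10 of 67 (14.9%) and 0. Homeobox genes outside the clusters had 17 of 86 (19.8%, 12.7 to 29.4) and 4, and ligand genes 12 of 49 (24.5%) and 2. Zfp zinc finger genes had 12 of 325 (3.69%) and 2.

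**Figure D2:**
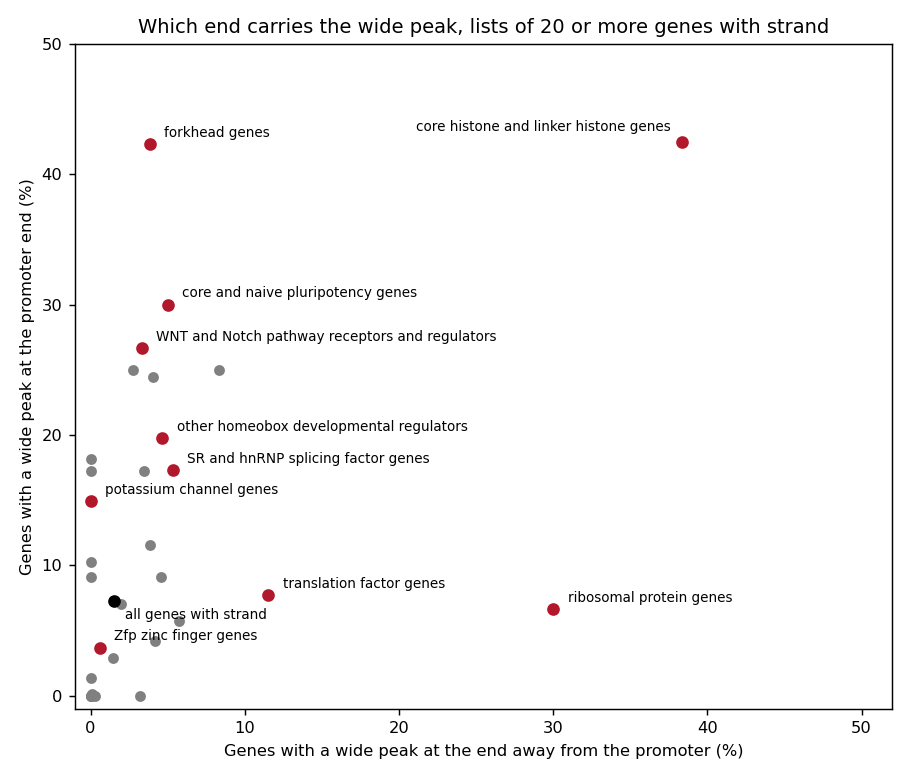
Share of genes with a wide peak at the promoter end (vertical axis, %) against the share with a wide peak at the far end (horizontal axis, %), 1 point for each list with 20 or more genes of known strand; red points are named lists and the black point is all 16457 genes with strand, at 7.26% and 1.51%. Ribosomal protein genes stand far to the right at 30.0% and low at 6.67%, forkhead genes high at 42.3%, and histone genes, of which 28 have a wide peak at both ends, high on both axes.

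Over all carriers with known strand, wide peaks were mostly promoter peaks and more so than the shorter ones. Of 1358 carriers of a wide peak, 1110 had it at the promoter end only (81.7%, 79.6 to 83.7), 84 at both ends (6.19%) and 164 at the far end only (12.1%, 10.4 to 13.9). Of 3062 genes with a 500 to 1000 bp peak, 1780 had it at the promoter end only (58.1%, 56.4 to 59.9), 263 at both (8.59%) and 1019 at the far end only (33.3%, 31.6 to 35). Of the 164 genes with a wide peak at the far end only, 145 had some peak over the promoter.

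Far-end peaks of the 2 classes differed in what else they covered. The 203 wide far-end peaks lay over a promoter of some gene in the table in 45.3% of cases (38.6 to 52.2), against 9.32% (7.83 to 11.1) of 1244 far-end peaks of 500 to 1000 bp. Over no promoter, and at no end of a gene without an entry in the table, lay 42.4% of the wide and 85.8% of the shorter peaks. A longer peak can reach a neighbouring promoter by its length alone. Wide far-end peaks reached a median of 1577 bp beyond the gene and 900.5 bp into it, and the shorter ones 435.5 and 261.5 bp. More lay beyond the gene than within it in 57.7% (51.4 to 63.6) of the wide and 53.2% (50.5 to 55.9) of the shorter ones. Both classes thus leaned beyond the gene, with overlapping intervals.

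At the promoter end, wide peaks extended further into the gene than ahead of it. Where the peak covered the annotated start, wide peaks reached a median of 872 bp upstream and 1423 bp downstream (1133 genes), and peaks of 500 to 1000 bp a median of 355 and 475 bp (1778 genes). More lay downstream than upstream in 68.8% (66.0 to 71.4) of the wide and 64.9% (62.7 to 67.1) of the shorter peaks. The asymmetry was thus shared by both classes, and the intervals of the shares overlapped.

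**Figure D3:**
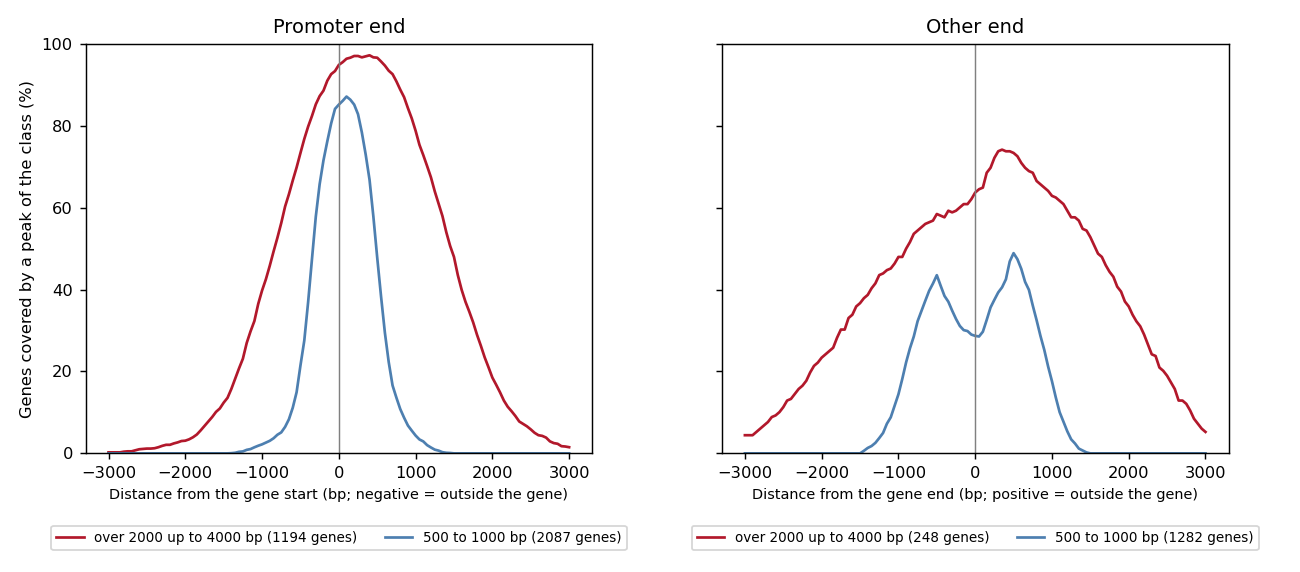
Share of genes covered by a peak of the class (vertical axis, %) by distance from the annotated gene start (left panel, bp, negative outside the gene) and from the far end (right panel, bp, positive outside the gene), for every gene with strand that has a peak over 2000 up to 4000 bp (red) or of 500 to 1000 bp (blue) at that end, whatever other peaks it has. Left, both classes centre just inside the gene. Right, both classes extend further beyond the gene than into it. The shorter ones have maxima there near the edges of the 500 bp window and a dip at the end base.

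Promoters of carriers were richer in G, C and CpG. The median promoter of 300 bases held 24 CpG dinucleotides in 1358 carriers of a wide peak, 14 in 3062 genes with a 500 to 1000 bp peak, 2 in genes with no end peak and 14 in all genes. The median share of G and C was 65.3% in carriers, 57.0% in genes with the shorter peak and 56.7% in all genes, and the ratio of observed to expected CpG was 0.795 in carriers, 0.615 with the shorter peak and 0.597 in all genes. The middle 50% of carriers, between the quartiles, spanned 15 to 35 CpG, and that of genes with the shorter peak 7 to 22, so the ranges overlapped widely. A promoter sequence was at hand for 76.3% of carriers and 78.8% of genes with the shorter peak, under 80% of each, so these values describe the genes with an entry only and are void for the whole of either group. A peak over the promoter sequence itself gave medians of 26 CpG for wide peaks, 22 for peaks of 1001 to 2000 bp, 14 for 500 to 1000 bp, 6 for 198 to 499 bp and 2 for no peak. Across 11376 promoters under a peak, Spearman's rho between peak width and CpG count was 0.383. That figure describes 1 peak list, in which neighbouring genes share peaks.

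The share of promoters under a wide peak was 0.627% for promoters with 0 to 4 CpG and 23.5% (21.4 to 25.7) for those with 35 or more. The share under a peak of 500 to 1000 bp was highest, at 24.4%, for promoters with 10 to 14 CpG and was 4.13% for those with 35 or more. No correlation of CpG count with wide share was computed across the gene lists. Olfactory receptor, vomeronasal receptor and defensin genes, each with a median of 1 CpG, had wide shares of 0.0907%, 0.287% and 0%. Lists with similar counts could still differ in the wide share. Proteasome genes, with a median of 19 CpG and no wide peak, germline genes with 18 and mitochondrial ribosomal protein genes with 21 had counts near those of homeobox genes (19) and ligand genes (18), of which 24.4% and 29% were carriers. Histone promoters had a median of 11.

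**Figure D4:**
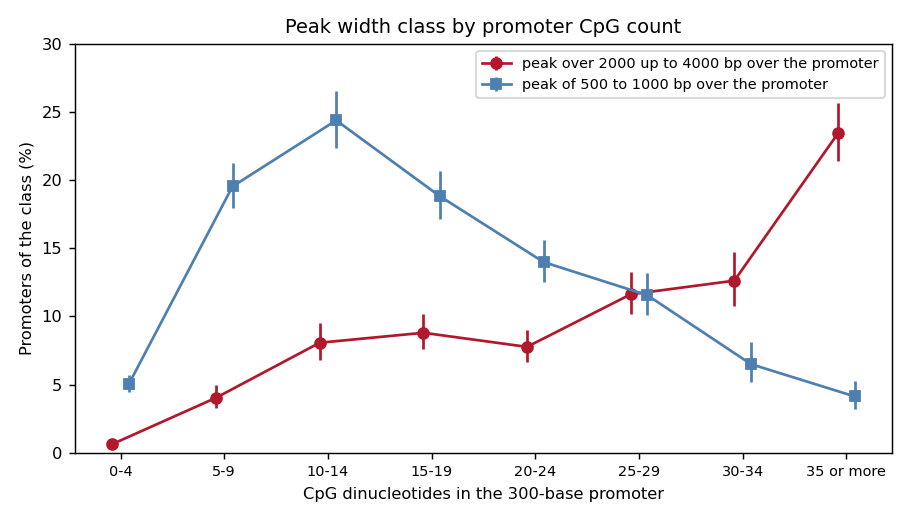
Share of promoters (vertical axis, %, with 95% Wilson intervals) under a peak over 2000 up to 4000 bp (red circles) and under a peak of 500 to 1000 bp (blue squares), by the number of CpG dinucleotides in the 300-base promoter (horizontal axis). The wide share reaches 23.5% at 35 or more CpG, where the shorter class stands at 4.13%.

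Short motifs were counted on both strands of the promoters, and matches may overlap. The GC box core CCGCCC, bound by SP and KLF factors, was present in 71.6% (69.2 to 74.0) of carriers' promoters, 50.5% (48.7 to 52.2) of those of genes with the shorter peak and 47.3% of all promoters. The TATA box TATAAA was in 6.70% of carriers' promoters, 9.14% of those with the shorter peak and 13.5% of all. The CCAAT box, with the letters CCAAT, was in 34.5% of carriers', 38.9% of shorter-peak and 39.1% of all promoters. The ETS motif CCGGAAG was in 10.8% of carriers', 16.1% of shorter-peak and 12.3% of all promoters. GCATGCG, part of the NRF1 motif, was in 3.90%, and AAGATGG, part of the YY1 motif, in 5.52% of carriers' promoters, against 5.19% and 6.30% with the shorter peak and 4.59% and 6.40% of all. The GC box was the only one of the 6 whose share was higher in carriers than in genes with the shorter peak, and it consists of G and C like the composition above. A match is a string of letters and not a bound site.

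Carriers were longer genes. Their median annotated length was 26067 bp, against 17772.5 bp for genes with a 500 to 1000 bp peak and 17578.5 bp for all genes. Genes over 100 kb made up 20.6% (18.8 to 22.6) of carriers, 9.21% (8.34 to 10.2) of genes with the shorter peak and 11.2% of all. The share of genes with a wide peak was 3.23% under 2 kb, 8.99% for 2 to 5 kb, 8.10% for 5 to 10 kb, 7.04% for 10 to 20 kb, 7.78% for 20 to 50 kb, 11.4% for 50 to 100 kb, 15.3% for 100 to 200 kb and 16.7% at 200 kb or more. It was thus higher from 50 kb on and did not increase steadily below that. The longest carriers included Naaladl2 (1346047 bp), Lingo2, Ptprt and Nrg3, which encodes a neuregulin. The shortest were the histone genes H4c14 (384 bp), H4c17, H4c18, H2ac13 and H2ac24. Genes under 4000 bp, which a wide peak could span whole, were 11.6% of carriers and 12.4% of genes with the shorter peak.

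**Figure D5:**
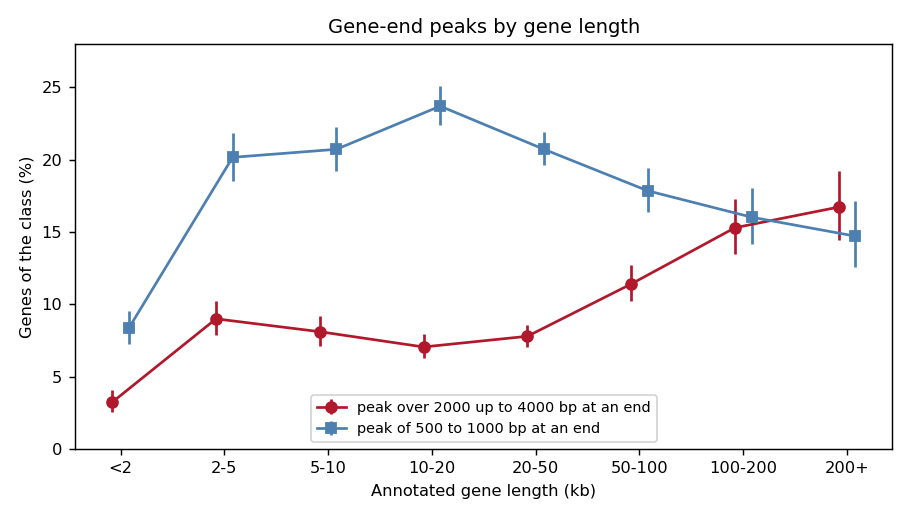
Share of genes (vertical axis, %, with 95% Wilson intervals) with an end peak over 2000 up to 4000 bp (red circles) or with an end peak of 500 to 1000 bp and no wide one (blue squares), by annotated gene length in kb (horizontal axis, unequal classes). The wide share is 16.7% and the shorter share 14.7% for genes of 200 kb or more, against 7.04% and 23.7% at 10 to 20 kb.

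Wide peaks met the ends of several genes more often than shorter ones did. A longer peak can meet more gene ends by its length alone. Of 1523 wide peaks, 252 met the ends of 2 or more protein-coding genes (16.5%, 14.8 to 18.5), against 348 of 4092 peaks of 500 to 1000 bp (8.5%, 7.69 to 9.40). Where exactly 2 genes with strand were met, both had their promoter end there in 106 of 173 wide peaks (61.3%, 53.8 to 68.2) and in 81 of 226 shorter ones (35.8%, 29.9 to 42.3). Both had their far end there in 22 of 173 wide peaks (12.7%) and 72 of 226 shorter ones (31.9%). A wide peak of 3323 bp on chromosome 8 met 3 genes, Gdf1, Cers1 and Upf1. Both ends of the same gene lay in 1 wide peak for 70 genes, and 27 genes had separate wide peaks at their 2 ends. Among the 27 were Anapc11 of the mitotic ubiquitin ligase (2148 and 2057 bp), Caprin1, an RNA-binding protein (2035 and 2345 bp), Cdc34, a ubiquitin-conjugating enzyme (2216 and 2166 bp), Cdv3, Cers1 and Bzw1.

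Other annotated features lay near the wide peaks. Long non-coding RNA genes overlapped 273 of 1523 wide peaks (17.9%, 16.1 to 19.9) and 361 of 4092 shorter ones (8.82%, 7.99 to 9.73). miRNA genes overlapped 16 wide and 11 shorter peaks, and tRNA genes 9 wide and 3 shorter ones. A longer peak meets more features by length alone. The nearest other peak lay a median of 4774 bp from a wide peak and 2243 bp from a peak of 500 to 1000 bp. Another peak was within 500 bp of 7.09% (5.91 to 8.49) of the wide and 13.4% (12.4 to 14.5) of the shorter ones. Over all autosomal peaks the values were 3474 bp and 8.90%. The members were chosen by width from a merged list, and what merging does to this distance was not tested. Gene-end placement itself followed width: 1523 of 2819 autosomal peaks over 2000 up to 4000 bp met a gene end window (54.0%, 52.2 to 55.9), against 4092 of 61471 peaks of 500 to 1000 bp (6.66%). The end base itself was covered by 49.8% of the wide and 4.24% of the shorter peaks, where length again helps the wider class.

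Carriers were found on every autosome. Per chromosome, the share of genes with a wide end peak ran from 6.73% (5.66 to 7.99) on chromosome 2 to 13.5% (10.8 to 16.7) on chromosome 18. The protocadherin clusters lie on chromosome 18, where 44 wide peaks gave 69 carriers and a single peak of 2337 bp met 24 genes. Chromosome 11 had 176 carriers of 1602 genes (11.0%, 9.55 to 12.6).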

How the data were processed

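ATAC-seq was made from 18 libraries of 1 mouse embryonic stem cell line, 3 at each of 6 times. The authors deposited 1 merged peak list of start and end positions in bp, per the file itself, in which the name column repeats the position in all 166066 peaks. Tools named without roles, per the submitters' processing notes, are MACS2 2.2.7.1, Bowtie2 2.4.2 and Trimmomatic 0.36, with the builds GRCm38 and mm10. How peaks were merged, the peak threshold, duplicate removal and the offset of transposase insertions are not given in the sources used here. A threshold or a merging distance would change which peaks exist and how wide they are. Depth per library is unknown, and the number of unused per-sample columns was 0.

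Width is the end minus the start of the deposited line. Gene ends came from the RefSeq gene table of GRCm38.p6, without 348 genes whose coordinates are those of scaffolds, and a peak counted at a gene end where it overlapped the 500 bp on either side by at least 1 bp. A gene with both kinds of peak counted as a carrier of a wide one. The gene table gives no strand. Strand and promoter composition came from RefSeq promoter sequences, 250 bases before to 50 after the start, held for 16457 of 20558 genes (80.1%), for 76.3% of carriers and for 78.8% of genes with the shorter peak. The comparison of composition between the last 2 falls short of 80% coverage and is void as a check on all their genes. It describes the genes with an entry, and chromosome 18 has none.

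The members and the 43 gene lists were chosen with earlier results of these data known. Lists were matched by symbol or symbol pattern, 6 genes by synonym. Named genes were those at the 10 widest members, the 3 peaks on each side of each width limit, up to 4 widest carriers and up to 3 genes with a 500 to 1000 bp peak in each list, up to 6 genes with separate members at both ends, the genes at the 5 members that meet the most genes, the 5 longest and 5 shortest carriers and the 3 methyltransferase genes. Some items that this rule names are not reported here. Shares carry 95% Wilson intervals, and a count of 0 allows up to 3 counts. The tests planned on libraries were not run, as there is no value per library. The overlap step was tested on simulated data. Scripts ran in Python 3.11.15 with pandas 2.3.3, numpy 2.4.6 and scipy 1.17.1, and figures were drawn with matplotlib 3.10.9.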

Additional observations from a re-analysis of the deposited data

Results flagged for a closer look

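Chromosome X, outside the autosomal rule, held 45 wide gene-end peaks, a signal in data that the comparisons did not use. They gave 47 of 963 X-linked protein-coding genes a wide end peak (4.88%, 3.69 to 6.43), against 8.65% of autosomal genes, and chromosome Y had 0 of 253. The widest was at Tbl1x (3307 bp), which encodes a subunit of a nuclear receptor corepressor complex.

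Above the upper width limit lay 4 autosomal gene-end peaks, which the comparisons did not use either. They were at Ihh (4236 bp), a hedgehog ligand, Brd2 with H2-DMa (4186 bp), Ssbp4 (4165 bp) and Fgf18 (4045 bp).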

How the results depend on the processing

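The width limit moved the counts most: 4804 peaks and 5445 genes passed at over 1500 bp and 419 peaks and 490 genes at over 2500 bp. Windows of 2000 bp put 19.9% of wide peaks at 2 or more genes, against 15.2% of the shorter ones. Median gene length was 32492 bp in carriers and 21385 bp in genes with the shorter peak where only genes over 4000 bp counted. Only peaks over the promoter sequence gave medians of 26 CpG and 66.7% G and C under wide peaks, against 14 CpG and 56.7% under shorter ones. The ribosomal far-end share, chosen like its alternatives after seeing the data, was 43.3% with windows of 2000 bp, 16.7% over 2500 bp and 13.3% where the end base had to be covered. Of 386 list shares under alternatives, 314 stayed within the interval of the main setting and 70 left it. Another 2 crossed the share of all genes from a list whose interval excluded that share. These were ribosomal proteins at the promoter end (6.67% against 7.26%) and protocadherins over 2500 bp (0% against 2.38%). The share of all genes itself was 26.5% at over 1500 bp and 2.38% at over 2500 bp. A share outside the interval therefore need not have changed its standing against all genes. Counted without regard to intervals, 24 of the 386 changed sides, 22 of them from lists whose interval included the share of all genes, among them Hox, solute carrier, collagen and endoderm marker genes. The cause was not tested. No paired analysis was possible because the list holds merged peak positions with no value per library, and no replicate could be left out for the same reason.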
